A study of Mus musculus with 8 samples.

Results

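Cells sense microbes through pattern recognition receptors. The genes described here encode the receptors of the cell surface and cytosol that recognise bacterial and fungal products, together with the adaptors, kinases, scaffold proteins and transcription factors that carry their signal. The 37 genes were taken by symbol from 21887 protein-coding genes of the mouse GRCm38.p6 annotation, in 8 roles, and not by any measured value. Open chromatin at them was mapped by ATAC-seq, an assay that tags accessible DNA with a transposase, in conventional dendritic cells (cDC) sorted from mouse spleen.

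The 4 groups, with 2 libraries each, were KO cDC2, WT cDC2, KO cDC1 and WT cDC1. KO mice are labelled HDAC1 Mx1-Cre and WT mice HDAC1 floxed, with no Cre named. HDAC1 is a histone deacetylase. All mice of both genotypes had received poly I:C to switch on recombination, 2 weeks before the sort. Mx1-Cre is driven by an interferon-responsive promoter and is not limited to dendritic cells, and poly I:C is itself a ligand of Tlr3 and of RIG-I-like receptors, so the controls are poly I:C-treated too. Both subsets were lineage-negative CD11c+MHCII+CD64- cells, with cDC2 XCR1-CD11b+ and cDC1 XCR1+CD11b-. Nothing in the labels says that the libraries of a group came from separate animals, so p-values measure the spread between these libraries, which may be technical.

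In outline, surface toll-like receptors work with helper proteins such as Cd14 and Ly96 and recruit the adaptors Tirap and Myd88 or Ticam2 and Ticam1. Irak kinases, Traf6 and the Tak1 complex then lead to NF-kB, while Traf3, Tbk1 and Ikbke lead to Irf3. Nod1 and Nod2 signal through Ripk2, inflammasome receptors through Pycard to Casp1, and fungal lectin receptors through Syk to Card9, Bcl10 and Malt1. Mouse cDC1 are known for high Tlr3 and mouse cDC2 for a wider set of surface receptors.

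The measured quantity is the number of summits per gene. A summit is the point of highest signal in a called peak. The 61737 best-scored summits of each library were kept, so that all lists had the length of the shortest, and each was given to the nearest protein-coding gene at most 50 kb away. The number of reads per library is not given in the sources used here, so the depth behind each count is unknown. The deposited lists held 61737 to 78296 summits in cDC2 libraries and 74963 to 96031 in cDC1 libraries. Equal length did not give an equal score at the cut. The lowest score kept was 4.007 and 4.923 in KO cDC2, and 3.56 and 1.309 in WT cDC2, the last from a list kept whole. It was 4.534 and 7.207 in KO cDC1, and 4.931 and 4.947 in WT cDC1. Replicate 2 of WT cDC2 thus counts peaks of lower score, and the effect of this on the counts was not tested. A count of 0 means only that no peak went to the gene, not that its chromatin was closed. HDAC1 itself had 1 or 2 summits in every library, and summit numbers do not check the deletion. Summed over marker lists, 7 cDC2 markers held 42 to 44 summits in cDC2 libraries and 27 to 33 in cDC1 libraries, and 8 cDC1 markers held 43 to 46 in cDC2 and 66 to 70 in cDC1, with Xcr1 at 0 in all. Within the lists markers differed. Cadm1, Irf8, Cd8a and Tlr3 were higher in every cDC1 library than in any cDC2 library, and Zeb2 and Clec4a4 the reverse. Clec9a had 2 summits in each cDC2 library and 1 to 2 in cDC1, and Batf3 9 to 10 and 7 to 9. Itgae had 4 to 7 in cDC2 and 3 to 6 in cDC1, and Itgam, a cDC2 marker, 7 to 10 in both. Of the other cell types, 10 monocyte and macrophage markers held 31 to 38 in cDC2 and 37 to 40 in cDC1, 7 granulocyte markers 12 to 15 and 8 to 15 (Camp at 0 in all), 6 T cell markers 16 to 21 and 12 to 16 (Cd3g at 0 in all), 6 B cell markers 16 to 22 and 19 to 20, 5 NK cell markers 16 to 18 and 14 to 17, and 6 plasmacytoid DC markers 32 to 38 and 30 to 36. Their part in the results was not tested. In bulk samples fewer open cells and less open chromatin per cell cannot be told apart.

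Start regions of the members were open in nearly every case where the start is known. The RefSeq promoter table (GRCm38.p6) matched 30 of the 37 members. Tlr4, Cd14, Ly96, Ticam2, Tab1, Ripk2 and Malt1 had no entry. Within 1 kb of a transcription start, 27 of the 30 had a summit in all 8 libraries, the other 3 (Ikbke, Nlrc4 and Tlr5) in 1 to 7, and 0 in none. Of 17492 protein-coding genes in the table, 50.9% had such a summit in all 8 libraries. In the narrower window from 250 bases before to 50 after the start the counts were 17 of 30 members in all 8 libraries, against 26.6% of all genes. These shares are a description.

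Below are the 250 bases before the start of 6 of the 17 members whose start window held a summit in all 8 libraries. They are shown so that the reader can see what lies under these constant summits. Capitals mark matches, on either strand, to the letters searched, and all are written along the strand of the gene. Sequences are from RefSeq, GRCm38.p6.
Tlr2 (chr3:83841609-83841858, minus strand): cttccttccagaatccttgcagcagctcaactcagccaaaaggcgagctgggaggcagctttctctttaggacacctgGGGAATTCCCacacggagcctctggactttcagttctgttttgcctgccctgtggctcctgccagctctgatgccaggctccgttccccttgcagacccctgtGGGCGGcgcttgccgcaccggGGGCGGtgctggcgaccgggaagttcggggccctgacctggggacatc
Ticam1 (chr17:56276768-56277017, minus strand): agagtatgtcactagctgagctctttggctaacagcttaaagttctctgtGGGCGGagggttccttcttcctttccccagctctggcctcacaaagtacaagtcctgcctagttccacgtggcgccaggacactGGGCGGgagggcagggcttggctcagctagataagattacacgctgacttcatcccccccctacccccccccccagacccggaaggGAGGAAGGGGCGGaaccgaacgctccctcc
Mavs (chr2:131233813-131234062, plus strand): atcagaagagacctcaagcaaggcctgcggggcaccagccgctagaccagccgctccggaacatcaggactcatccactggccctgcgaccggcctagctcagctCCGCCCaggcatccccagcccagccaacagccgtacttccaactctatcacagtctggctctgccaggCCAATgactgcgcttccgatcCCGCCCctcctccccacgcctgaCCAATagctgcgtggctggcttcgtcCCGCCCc
Nlrp3 (chr11:59542436-59542685, plus strand): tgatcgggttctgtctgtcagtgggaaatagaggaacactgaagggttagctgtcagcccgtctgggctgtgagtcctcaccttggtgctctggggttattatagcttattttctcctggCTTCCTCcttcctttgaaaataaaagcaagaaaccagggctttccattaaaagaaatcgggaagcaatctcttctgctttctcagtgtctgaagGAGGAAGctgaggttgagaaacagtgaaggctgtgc
Card9 (chr2:26360910-26361159, minus strand): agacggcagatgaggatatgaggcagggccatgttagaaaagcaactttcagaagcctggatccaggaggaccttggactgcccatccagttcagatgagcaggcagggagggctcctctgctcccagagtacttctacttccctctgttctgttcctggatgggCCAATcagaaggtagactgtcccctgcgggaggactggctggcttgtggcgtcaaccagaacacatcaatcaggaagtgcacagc
Bcl10 (chr3:145924012-145924261, plus strand): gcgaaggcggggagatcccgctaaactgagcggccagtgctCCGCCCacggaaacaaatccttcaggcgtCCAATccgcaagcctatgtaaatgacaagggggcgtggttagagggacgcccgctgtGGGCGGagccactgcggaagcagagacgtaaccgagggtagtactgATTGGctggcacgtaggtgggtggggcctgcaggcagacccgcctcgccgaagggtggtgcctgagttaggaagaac

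Of these, the start of Mavs, the adaptor of RNA sensors, had the best rank, at a median of 309 over the libraries, where rank 1 is the highest score in a library. Its summits lay at -93 to -61 from the start. Bcl10, which joins Card9 to Malt1, followed at a median rank of 392, with summits between -143 and 11. Ticam1, the adaptor that leads to interferon, had a median rank of 1601.5 and summits between -241 and -108. The receptor Tlr2 had its best summit at -92 to -69 in every library, with GC boxes at -69 and -48 and an NF-kB match at -172. At the inner start of Nlrp3, the inflammasome receptor, the best summit lay between -131 and 33, and PU.1 matches lay at -130 and -36. At Card9 it lay between -75 and -37, with a CCAAT box at -85.

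Motifs were searched in the 250 bases before 39 starts of 30 members and before all 32851 starts in the table, on both strands. The NF-kB letters GGG and TTTCC, with 2 bases of any kind between them, were found before Map3k7 and Traf3, and in 1.41% of all windows. A second NF-kB form, GGGAA and CCC with 2 bases of any kind between them, was found before Tlr2 and the outer start of Nlrp3, and in 1.53%. The interferon-type ISRE letters, GAAA repeated after 2 bases of any kind, were found before Myd88 and Tlr6, and in 2.98%. The Tlr6 matches lay before the start at 64959166, whose start window held a summit in 0 libraries. The PU.1 letters GAGGAAG were found before 7 members (Ikbke, Nlrp3, Pycard, Tab2, Ticam1, Tlr1 and Traf6; 7 of 39 windows), and in 10.6%. The start windows of Ikbke and of the matched Tab2 start (7953065) held a summit in 0 libraries. The GC box GGGCGG was found before 20 members (21 of 39 windows) and in 32.7% of all windows. CCAAT was found before 10 members (10 of 39 windows) and in 33.8%. None of the motifs contains another, but matches may share bases. The median GC content of the member windows was 55.2%, against 52.4% for all windows. A match is not a bound site.

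**Figure D1:**
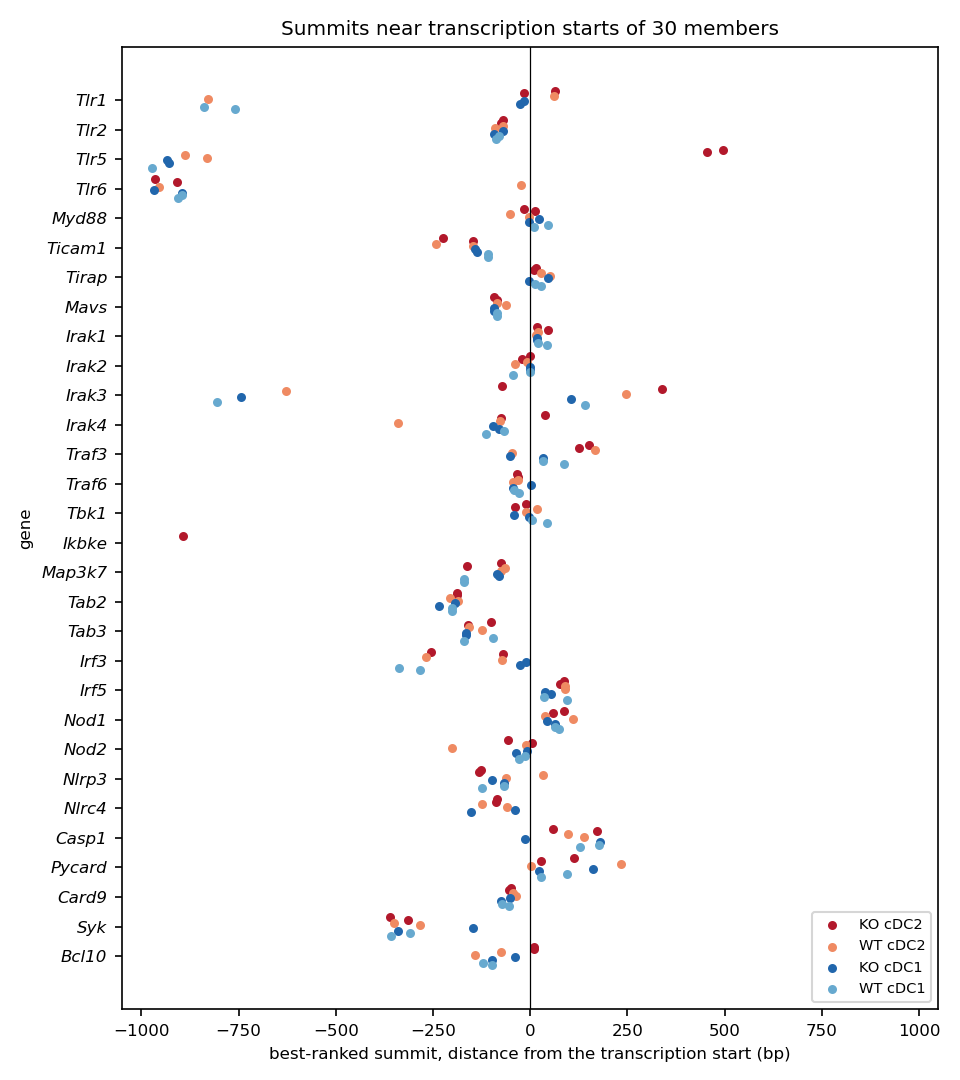
Position of the best-ranked summit within 1 kb of the transcription start (x axis, bp, negative upstream) for 30 members (rows), 1 point per library, coloured by group. Most genes have all 8 points close together, Ikbke has a point in only 1 library, and Irak3, Tlr1 and Tlr5 have scattered points.

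The 37 genes had 203 to 216 summits in total in the 4 cDC2 libraries (210 ± 5.91, SD, n = 4) and 173 to 187 in the 4 cDC1 libraries (182 ± 6.63). The totals did not overlap between subsets, although 54987 to 55460 summits of each library were given to any gene. With all deposited summits the totals were 233, 248, 222 and 203 in cDC2 and 214, 267, 214 and 226 in cDC1, which overlap, so the direction rests on lists of equal length. By genotype within a subset, the cDC2 totals were 214 and 216 in KO against 208 and 203 in WT libraries. The cDC1 totals were 181 and 187 in KO against 173 and 187 in WT libraries. The genotypes did not overlap in cDC2 and did in cDC1, and with 2 libraries a group no test was made of these totals. Every member but Irf3 had at least 1 summit in each library. A tested member had a median of 5.12 summits, against 2.5 for all 14068 genes with a mean of at least 1, which is the condition for a test, and 36 members met it.

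**Figure D2:**
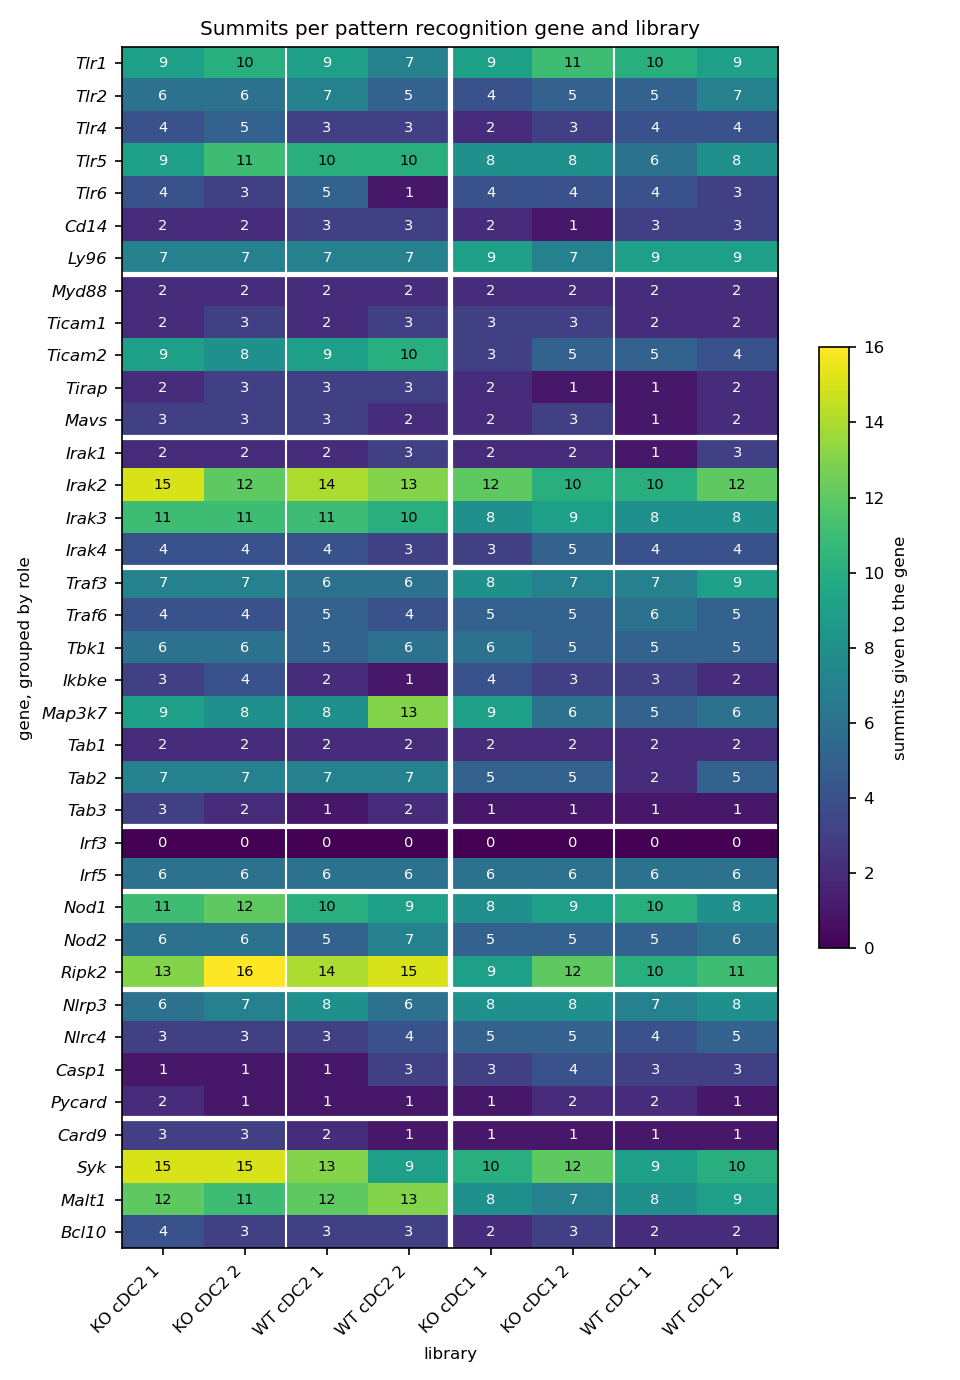
Summits given to each of the 37 genes (rows, grouped by role) in each of the 8 libraries (columns, KO before WT within cDC2 and then cDC1). The number in each cell is the count, from 0 at Irf3 to 16 at Ripk2. Ticam2, Malt1 and Ripk2 are lighter in all 4 cDC2 columns, and Irf5, Myd88 and Tab1 are the same across all 8.

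The first comparison asks how cDC2 differ from cDC1 over both genotypes. Ticam2 and Card9 had more summits in cDC2 and Casp1 fewer, and no other tested member passed. That is 3 of 36 members, where 10.4% of all 14068 genes passed (4.7% higher and 5.66% lower in cDC2), so the members' share of 8.33% was near the background. Among the best-scored 30868 summits of each list 7 of 33 members passed (21.2%), where 13% of all genes did. With all deposited summits 2 of 36 passed (5.56%), where 9.8% of all genes did, 198 of them higher and 1248 lower in cDC2, against 661 higher and 796 lower with lists of equal length. With lists of equal length, 12 members had an unadjusted p below 0.05, where 24.5% of all genes were. Differences are on the scale of log2(summits + 1), tested with limma and adjusted over all genes tested. A variance for rounding was added to that of each gene. With plain limma, without it, 3 of 36 members again passed (8.33%, where 9.02% of all genes did). These were Ticam2, Irak3 and Malt1, while Casp1 and Card9 did not pass. The median difference of the members was 0.15, against 0 for all genes. It was 0.04 among the best-scored 30868 summits, again against 0, and 0.0021 with all deposited summits, against -0.10 for all genes. With lists of equal length the difference was above 0 for 21 members (58.3%, against 43.7% of all genes), below 0 for 11 and 0 for 4. Their libraries did not overlap at 6 members, all higher in cDC2 (Tlr5, Ticam2, Irak3, Tab2, Ripk2 and Malt1), where 4.75% of all genes were higher in this way, and at 0 lower ones, where 5.79% were.

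**Figure D3:**
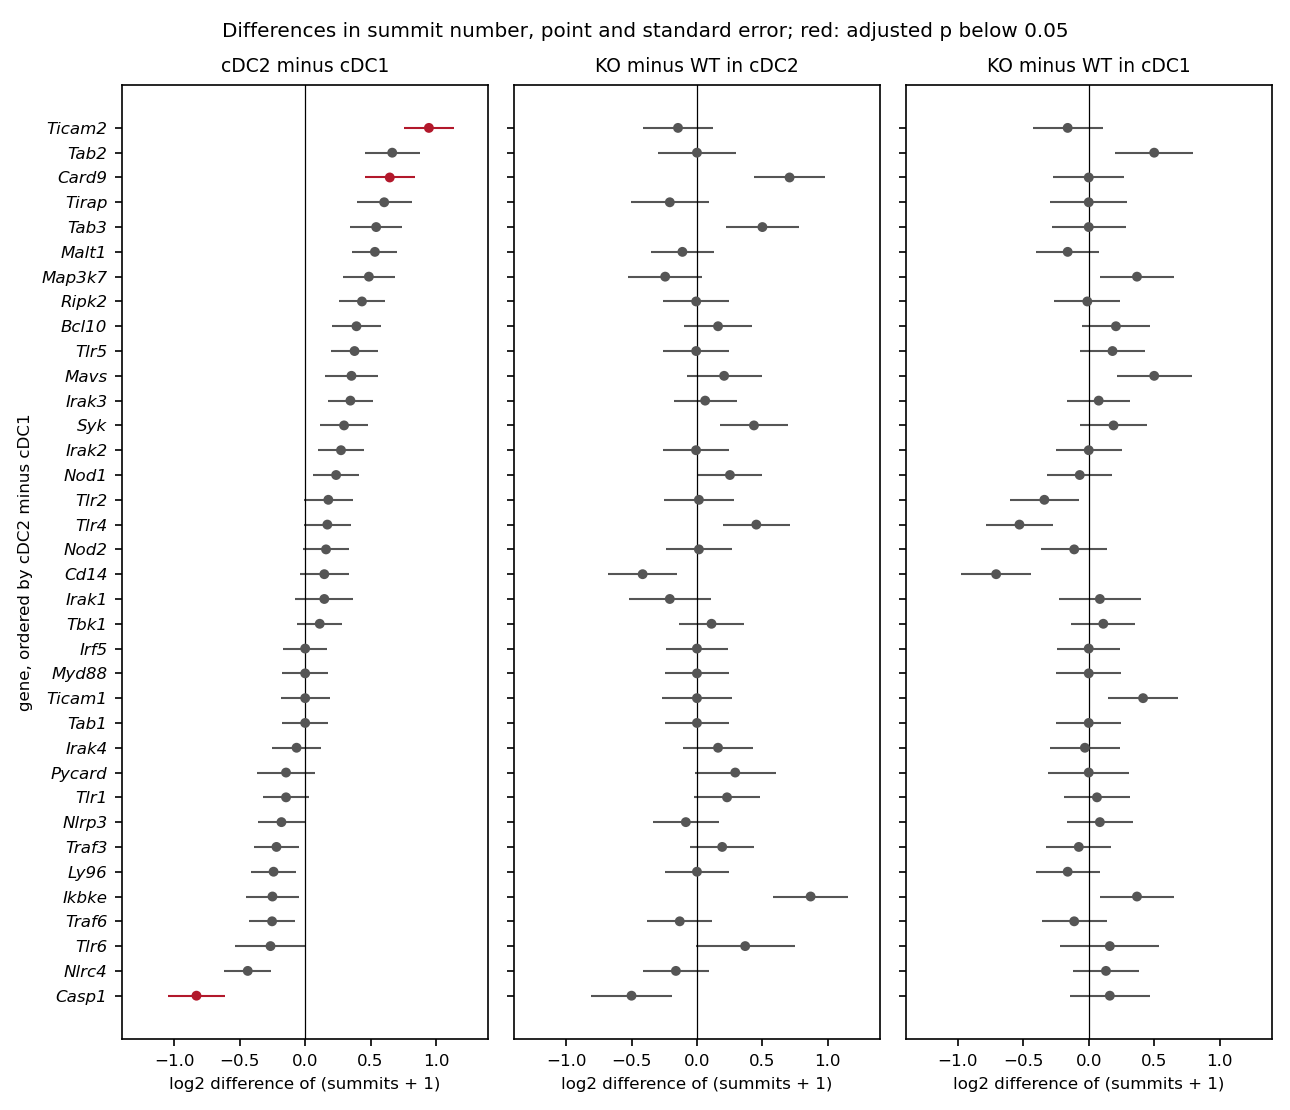
Difference in log2(summits + 1) for the 36 tested members (rows) in cDC2 minus cDC1, KO minus WT in cDC2 and KO minus WT in cDC1 (panels), as point and standard error. Red points, adjusted p below 0.05, are Ticam2 at 0.95, Card9 at 0.65 and Casp1 at -0.83, all in the first panel.

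Where 4 values are given per subset below, both KO libraries come before both WT libraries. The 5 adaptors together held 19 ± 0.816 summits in cDC2 and 12.25 ± 1.26 in cDC1 (SD, n = 4). With all deposited summits the adaptor totals overlapped between subsets. Totals by role were not tested. Among the adaptors, Ticam2 (chromosome 18, 46558231 to 46574533), which links Tlr4 to Ticam1, had 9 and 8 summits in KO cDC2 and 9 and 10 in WT cDC2, against 3 and 5 for KO cDC1 and 5 and 4 for WT cDC1. The subsets did not overlap. The mean was 9 ± 0.816 in cDC2 and 4.25 ± 0.957 in cDC1 (SD, n = 4), a log2 difference of 0.95 (SE 0.189, adjusted p = 0.0048). With all deposited summits it was 0.58 and did not pass (adjusted p = 0.0978). Ticam2 held 12 sites, where a site is a chain of summits of any library at most 250 bp apart. A pair of them were found in all 8 libraries, among them the site at the upper end of the gene span (46574223 to 46574506). Another 3 had a summit in all 4 cDC2 libraries and in no cDC1 library. They lay 13527 bp below the span (46544684 to 46544725, median rank 12946.5), 4421 bp below it (46553722 to 46553899) and inside it (46572924 to 46573033), each at least 1245 bp from any cDC1 summit.

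The other adaptors were flat or did not pass in the main fit. Myd88, the shared adaptor of most toll-like receptors, had 2 summits in every library, at its start and 1416 bp beyond its other end. Ticam1 had 2 to 3 in both subsets. Tirap, which brings Myd88 to the membrane, had 2, 3, 3 and 3 summits in cDC2 and 2, 1, 1 and 2 in cDC1. Its difference of 0.60 (SE 0.209) did not pass in the main fit (adjusted p = 0.081). With the replicate block the limma fit gave the same difference and Tirap passed (adjusted p = 0.0413). Over the alternatives its difference ran from 0 to 0.75, and it passed in 4 of 18. Mavs had 2 to 3 summits in cDC2 and 1 to 3 in cDC1, and its difference was 0.35 (SE 0.202, adjusted p = 0.333).

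The 4 genes of the CARD9 pathway held 30.5 ± 3.42 summits in cDC2 and 21.5 ± 1.29 in cDC1 (SD, n = 4). With all deposited summits their totals overlapped between subsets. Card9 (chromosome 2, 26352187 to 26360945), the adaptor of fungal lectin receptors, had 3 and 3 summits in KO cDC2 and 2 and 1 in WT cDC2, against 1 in each of the 4 cDC1 libraries. A WT cDC2 library thus had the cDC1 value. The mean was 2.25 ± 0.957 in cDC2 and 1 ± 0 in cDC1 (SD, n = 4), a log2 difference of 0.65 (SE 0.191, adjusted p = 0.0451). The call was lost without any one of 7 libraries (difference 0.5 to 0.65, adjusted p 0.0549 to 0.146), and held only without replicate 2 of WT cDC2 (0.79, adjusted p = 0.00937). The constant site at Card9 lay at its start (26360946 to 26360984). The cDC2 summits were added at 26359970 to 26360185, 832 bp inside the start, in 3 cDC2 libraries, and at 26353651 to 26353696, 7236 bp from it, in the 2 KO cDC2 libraries.

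The partners of Card9 had the same sign without passing in the main fit. Malt1, a protease and scaffold, had 12, 11, 12 and 13 summits in cDC2 and 8, 7, 8 and 9 in cDC1, with no overlap, and a difference of 0.53 (SE 0.172, adjusted p = 0.0606). With plain limma it passed (adjusted p = 0.0154). Bcl10 had 4, 3, 3 and 3 in cDC2 and 2, 3, 2 and 2 in cDC1 (difference 0.39, SE 0.184, adjusted p = 0.203). Syk, the kinase upstream of Card9, had 15, 15, 13 and 9 in cDC2 and 10, 12, 9 and 10 in cDC1, which overlap (difference 0.30, SE 0.182, adjusted p = 0.363). Malt1 and Bcl10 each had 1 site of cDC2 only, and Syk had 1 of cDC1 only.

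The 4 inflammasome genes together had fewer summits in cDC2, at 12.75 ± 0.957, than in cDC1, at 17.25 ± 1.26 (SD, n = 4). Among the best-scored 30868 summits of each list their totals overlapped between subsets, and with all deposited summits they did not. Casp1 (chromosome 9, 5298517 to 5307281), the protease that cuts the IL-1 beta precursor, had 1 and 1 summits in KO cDC2 and 1 and 3 in WT cDC2, against 3 and 4 for KO cDC1 and 3 and 3 for WT cDC1. Replicate 2 of WT cDC2 had the cDC1 value, so the subsets overlap. The mean was 1.5 ± 1 in cDC2 and 3.25 ± 0.5 in cDC1 (SD, n = 4), a log2 difference of -0.83 (SE 0.218, adjusted p = 0.0246). Without replicate 1 of WT cDC2 it was -0.58 and did not pass (adjusted p = 0.0748). All 8 libraries had the site at the start (5298505 to 5298697). Its rank was better in every cDC2 library (14061, 12742, 8415 and 7069) than in any cDC1 library (30625, 23321, 32858 and 26194). The start summit thus went the other way from the count. The sites at 5274407 to 5274711, 23958 bp before the gene, and at 5300200 to 5300226, inside it, were found in all 4 cDC1 libraries. Of the cDC2 libraries only replicate 2 of WT, whose list was kept whole, had them, at ranks 61194 and 51886. Over all libraries the ranks of these sites were 33225 to 61194.

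Nlrc4, a receptor for bacterial flagellin through Naip proteins, had 3, 3, 3 and 4 summits in cDC2 and 5, 5, 4 and 5 in cDC1, a difference of -0.44 (SE 0.178) that did not pass (adjusted p = 0.144). It held 2 sites of cDC1 only, both inside the gene (74434614 to 74434713 and 74442013 to 74442057, chromosome 17). Its start site was found in all 4 cDC2 libraries, at ranks 8964 to 14096. In cDC1 it was found in both KO libraries, at ranks 40396 and 45154, and in neither WT library. How many of all sites split by genotype within cDC1 was not counted. Nlrp3 had 6, 7, 8 and 6 in cDC2 and 8, 8, 7 and 8 in cDC1, and Pycard, the adaptor between receptor and Casp1, 2, 1, 1 and 1 in cDC2 and 1, 2, 2 and 1 in cDC1. Neither passed (adjusted p = 0.645 and adjusted p = 0.785).

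**Figure D4:**
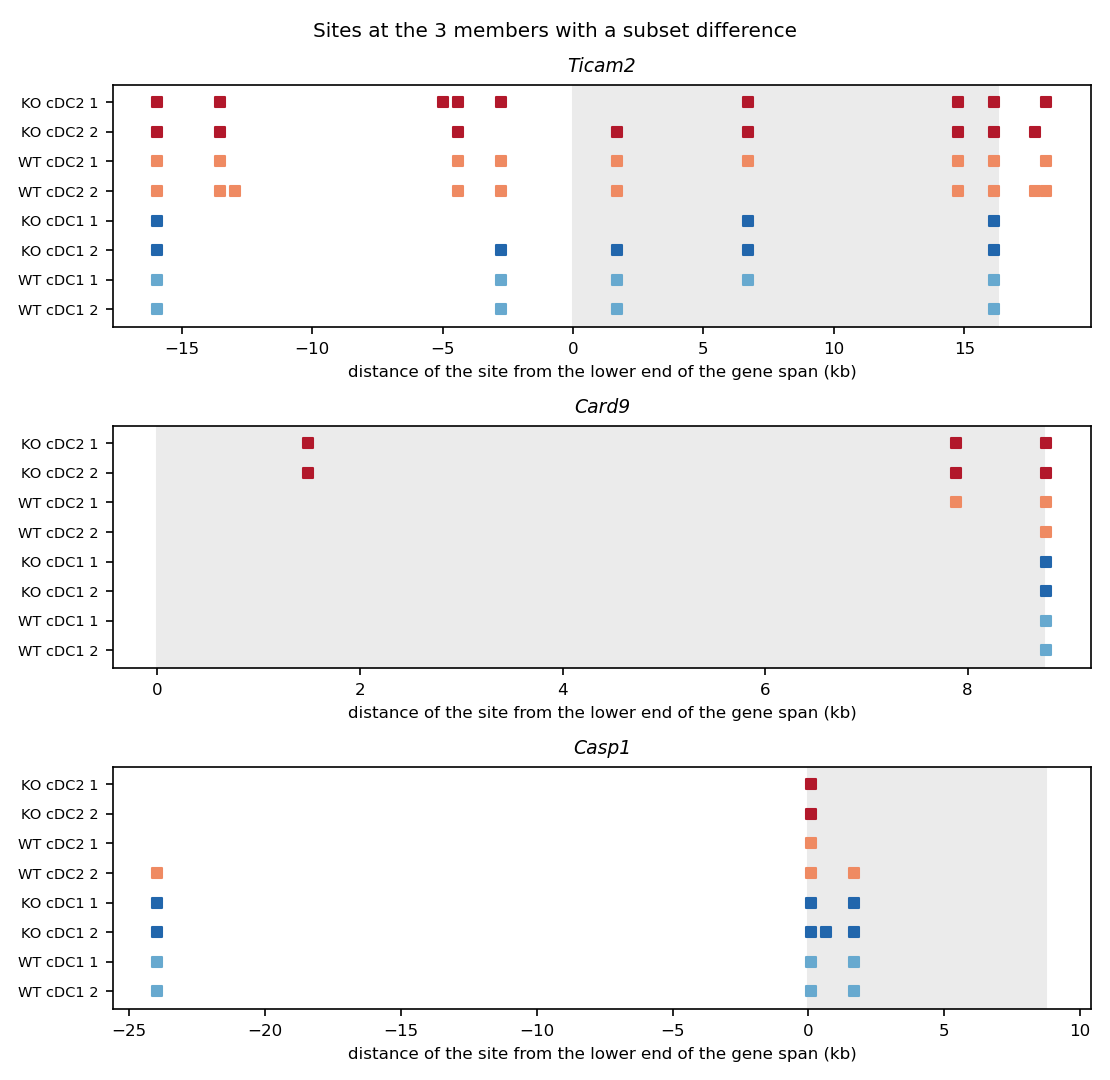
Sites with a summit (squares) in each library (rows, KO cDC2, WT cDC2, KO cDC1, WT cDC1 from top to bottom) at Ticam2, Card9 and Casp1. The x axis is the distance in kb from the lower end of the gene span, which is shaded. Ticam2 has 3 columns filled in all cDC2 rows and empty in all cDC1 rows, and the Casp1 columns near -24 and 1.7 kb are filled in all cDC1 rows and in 1 cDC2 row.

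No surface receptor passed between subsets, and the 7 of them held 41.25 ± 3.77 summits in cDC2 and 40.25 ± 2.22 in cDC1 (SD, n = 4). Tlr2, a receptor for bacterial lipopeptides, had 6, 6, 7 and 5 summits in cDC2 and 4, 5, 5 and 7 in cDC1 (difference 0.18, SE 0.187, adjusted p = 0.696). Tlr4, the receptor for lipopolysaccharide, had 4, 5, 3 and 3 in cDC2 and 2, 3, 4 and 4 in cDC1 (0.17, SE 0.182, adjusted p = 0.701). Tlr5, the flagellin receptor, had 9, 11, 10 and 10 in cDC2 and 8, 8, 6 and 8 in cDC1, which do not overlap (0.38, SE 0.177, adjusted p = 0.203). Ly96, the lipopolysaccharide-binding partner of Tlr4, had 7 in each cDC2 library and 9, 7, 9 and 9 in cDC1 (-0.24, SE 0.173, adjusted p = 0.448). Tlr1 and Tlr6, which pair with Tlr2 and lie next to each other on chromosome 5, had 7 to 11 and 1 to 5 summits per library, and how summits between them are divided depends on the assignment to the nearest gene. Cd14 had 1 to 3 in every library, and its 5 sites held none that was found in all 8.

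Of the kinases, Irak2 had 15, 12, 14 and 13 summits in cDC2 and 12, 10, 10 and 12 in cDC1, and 2 sites of cDC2 only, both inside the gene. Irak3, an inhibitory member of the family, had 11, 11, 11 and 10 in cDC2 and 8, 9, 8 and 8 in cDC1, without overlap, and 1 site of cDC2 only. Their differences of 0.27 (SE 0.178) and 0.35 (SE 0.17) did not pass (adjusted p = 0.403 and adjusted p = 0.232). With plain limma Irak3 passed (adjusted p = 0.0213). Irak4, the first kinase of the chain, and Irak1 had 1 to 5 summits per library. Irak4 held 1 site of cDC1 only.

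Of the Traf, Tak1 and Tbk1 level, Tab2, a Tak1 subunit, had 7 summits in each cDC2 library and 5, 5, 2 and 5 in cDC1, and 2 sites of cDC2 only upstream of its start (0.67, SE 0.211, adjusted p = 0.0558). Tab3, its relative on the X chromosome, had 3, 2, 1 and 2 in cDC2 and 1 in each cDC1 library (0.54, SE 0.199, adjusted p = 0.0988). Map3k7, which encodes Tak1, had 9, 8, 8 and 13 in cDC2 and 9, 6, 5 and 6 in cDC1 (0.49, SE 0.2, adjusted p = 0.149). Traf6 and Traf3 had the other sign (-0.25 and -0.22, adjusted p = 0.44 and adjusted p = 0.522), with 2 sites of cDC1 only at Traf6 and 1 at Traf3. Tab1 had 2 summits in every library, and Tbk1 5 to 6.

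The 3 genes of the Nod group held 31 ± 2.16 summits in cDC2 and 24.5 ± 1.73 in cDC1 (SD, n = 4). With all deposited summits their totals overlapped between subsets. Ripk2, the kinase of both receptors, had 13, 16, 14 and 15 summits in cDC2 and 9, 12, 10 and 11 in cDC1, without overlap, and the highest mean over all 8 libraries among the members, at 12.5 against 12.25 for Irak2 (0.43, SE 0.179, adjusted p = 0.151). Nod1 had 9 to 12 in cDC2 and 8 to 10 in cDC1. Nod2, a sensor of muramyl dipeptide, had 6, 6, 5 and 7 in cDC2 and 5, 5, 5 and 6 in cDC1. Neither passed (adjusted p = 0.468 and adjusted p = 0.725).

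The transcription factors were the most even. Irf5, which acts downstream of Myd88, had 6 summits in every library. They fell into 6 sites, each found in all 8 libraries, 3 of them before the gene, 1 at its start and 2 inside. Irf3 had 0 in every library. A summit 10 to 338 bp before its lower end, where its start lies (chromosome 7, 44997648), was present in all 8 libraries at ranks 8230 to 15354 and was given to the neighbour Bcl2l12. With every gene whose span plus 5 kb holds the summit, Irf3 had 1 in each library.

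Summit numbers also follow the stretch of genome that a gene can collect from. Per 10 kb of sequence nearest to the gene, Irf5 had the most, at 2.47 summits, followed by Ticam1 at 2.2 and Irak2 at 2.01, and Tab3 the fewest above 0, at 0.104. Of the 3 genes with the highest mean counts Irak2 was thus among the densest, while Ripk2 had 0.887 and Syk 0.82 summits per 10 kb.

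Over all members, 316 sites were found, of which 12 were of cDC2 only (3.80%, where 2.42% of 112443 sites were) and 10 of cDC1 only (3.16%, where 4.33% were). With all deposited summits the order of the counts turned round, to 7 of cDC2 only (1.81%, where 1.21% of all sites were) and 12 of cDC1 only (3.11%, where 4.84% were). With lists of equal length, the cDC2 sites lay at 8 members and the cDC1 sites at 8. None of the 22 lay within 1 kb of a gene end. Of those of cDC2 only, 5 lay inside genes and 7 outside, and of those of cDC1 only 8 inside and 2 outside. Sites found in all 8 libraries made up 33.5% of member sites (106) and 26.4% of all sites. They lay within 1 kb of a gene end in 31 cases, and 35 members had at least 1. Of all member summits 22.1% lay within 1 kb of a gene end, 38.6% inside and 39.3% outside the gene, against 22.6%, 49.6% and 27.9% of all summits given to a gene.

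**Figure D5:**
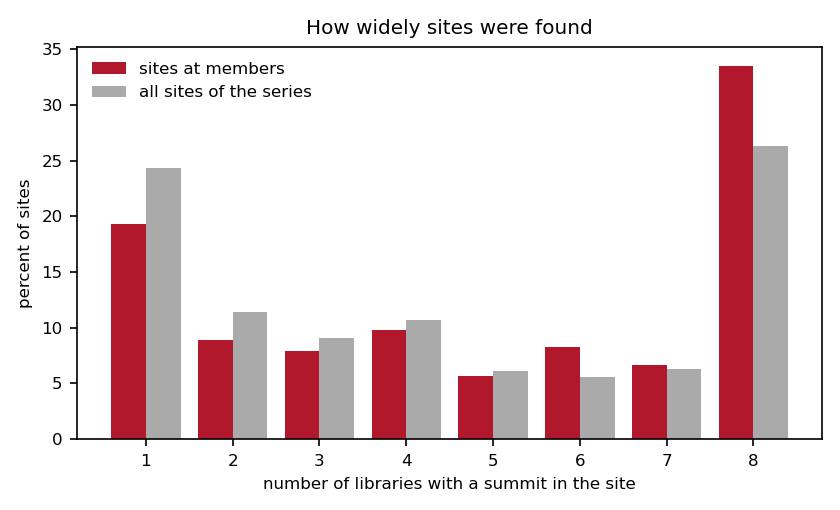
Percent of sites (y axis) by the number of libraries with a summit in them (x axis, 1 to 8), for the 316 sites at members (red) and all 112443 sites (grey). Of member sites 33.5% were found in all 8 libraries and 19.3% in 1, against 26.4% and 24.3% of all sites.

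The second comparison asks what the loss of HDAC1 changes at these genes. With limma 0 of 36 members passed in KO minus WT over both subsets, where 0.0426% of all genes passed (0.0355% higher and 0.00711% lower). It was also 0 in cDC2, where 0.0782% passed (0.0711% higher and 0.00711% lower), and in cDC1, where 0.0498% passed (0.0426% higher and 0.00711% lower). In the difference of the genotype effects between subsets 0 members and 0.0% of all genes passed. At an unadjusted p below 0.05 there were 2 members over both subsets (6.23% of all genes), 2 in cDC2 (5.64%), 1 in cDC1 (5.27%) and 1 in the difference of effects (3.82%). Plain limma without the rounding variance, and limma with trend and robust variance, also called 0 members in each. Plain limma called 2.33% of all genes over both subsets, 1.47% in cDC2, 1.25% in cDC1 and 2.13% in the difference of effects, and with trend and robust variance the shares were 2.29%, 1.46%, 1.23% and 2.13% in the same order. No site at a member was found in all 4 KO libraries and in no WT library, or the reverse, where 0.0836% and 0.0694% of all sites were. The median difference of the members was 0 in cDC2 and 0 in cDC1.

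The members nearest to a genotype difference had small counts. Ikbke, a kinase that acts with Tbk1 on Irf3, had, in cDC2, 3 and 4 summits in KO against 2 and 1 in WT libraries. In cDC1 it had 4 and 3 in KO against 3 and 2 in WT libraries. Its difference over both subsets was 0.62 (SE 0.202, adjusted p = 0.471). Cd14, the lipopolysaccharide co-receptor, had, in cDC2, 2 and 2 in KO against 3 and 3 in WT libraries. In cDC1 it had 2 and 1 in KO against 3 and 3 in WT libraries, so the genotypes did not overlap (-0.56, SE 0.188, adjusted p = 0.507). It was the only such member, where 0.284% of all genes were lower in KO in this way and 0.348% higher. Within cDC1 the Cd14 difference was -0.71 (SE 0.266, adjusted p = 0.847), but 0.08 with all deposited summits.

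Within cDC2, Ikbke differed by 0.87 between KO and WT (SE 0.286, adjusted p = 0.684). Card9 differed by 0.71 between KO and WT there (SE 0.271, adjusted p = 0.841) and Tab3 by 0.50 (SE 0.282, adjusted p = 1). Within cDC1, Mavs had 2 and 3 summits in KO and 1 and 2 in WT (0.50, SE 0.286, adjusted p = 1), and Tlr4 differed by -0.53 (SE 0.257, adjusted p = 0.974). The difference of the genotype effects was 0.98 at Tlr4, 0.71 at Card9 and -0.61 at Map3k7, each with an adjusted p = 1. Libraries did not overlap in cDC2 at 6 members higher in KO (Tlr4, Traf3, Ikbke, Nod1, Card9 and Syk) and 1 lower (Cd14), where 6.79% and 6.26% of all genes were, and in cDC1 at 1 higher (Ticam1) and 2 lower (Tlr4 and Cd14), where 6.72% and 6.75% were. At Syk KO minus WT was 0.44 in cDC2 and 0.19 in cDC1 (SE 0.257 each), neither passing.

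Among other genes of innate sensing, in 6 lists that hold no member, 2 of 56 tested genes were higher in cDC2 (Tlr7 and Tlr8) and 3 lower (Tlr12, Naip1 and Nlrp1b), with a median difference of 0.07. The 5 are 8.93% of the 56, near the 10.4% of all genes that passed, and are named because they passed. Naip1, a partner of Nlrc4, differed by -1.44 (SE 0.226, adjusted p = 0.000981) and Nlrp1b, another inflammasome receptor, by -0.68 (SE 0.177, adjusted p = 0.0239). Both belong to families of near-identical copies, where reads may be assigned to the wrong copy. Of NF-kB and IKK genes 0 of 12 passed, of negative regulators 0 of 11, of RNA and DNA sensing 0 of 7 and of C-type lectin receptors 0 of 4. In KO minus WT, over both subsets and in each, 0 of the 56 passed.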

How the data were processed

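ATAC-seq summit lists of 8 spleen cDC libraries were analysed, 2 per group, grouped by sample title. Per the submitters' processing notes, Bowtie2, SAMtools, MACS2 and MultiQC were used with GRCm38 (mm10). Versions, filters and peak settings are not given in the sources used here, and lists were made per library. The deposited score is a −log10 p-type value per peak, read as −log10 of a q-value, since the smallest score of a library was 1.3 to 1.36. Ranks within a library are the only use made of it.

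Ties between genes went to the gene with the nearer end. Summits per gene were fitted as log2(summits + 1) with limma 3.58.1 in R 4.3.3, with a mean per group, for 14068 genes, those averaging 1 summit or more. A variance for rounding, 0.0833 squared summits, was added to each variance, since identical small counts otherwise give variances near 0. Threshold: Benjamini-Hochberg adjusted p of 0.05, 2-sided. The members, lists, variance treatment and tests were chosen with earlier results of these data known. All 37 members are given by role. Values per library are printed for members called, for the 3 lowest p-values of each genotype contrast, for the best known members and for those with most or 0 summits. The fit was also run on simulated counts drawn around each gene's mean. Their spread was set and not taken from these libraries, so that run does not check the error rate for these data. Alternatives were list length, assignment, pseudocount, filter, variance, block, chaining distance and left-out libraries. Read depth is unknown, so no counting error is given.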

Additional observations from a re-analysis of the deposited data

Results flagged for a closer look

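Tlr4 had genotype differences of opposite sign in the subsets. In cDC2 it had 4 and 5 summits in KO against 3 and 3 in WT libraries. In cDC1 it had 2 and 3 in KO against 4 and 4 in WT libraries, so every KO library was above every WT library in cDC2 and below it in cDC1. The difference of the genotype effects was 0.98 on the log2 scale (SE 0.363) and did not pass when adjusted over all genes (limma, unadjusted p = 0.0156, adjusted p = 1). Among the best-scored 30868 summits of each list it was -0.21, and with a limit of 10 kb 0.21 (adjusted p = 1 in both; 0.357 to 1 over the alternatives). With all deposited summits the genotypes overlapped in both subsets. Tlr4 then had 4 and 5 summits in KO against 4 and 3 in WT cDC2 libraries, and 5 and 4 against 5 and 7 in cDC1. Only members were screened for such opposite signs, so no share of all genes is given. Within a subset 6.26% to 6.79% of all genes did not overlap in a given direction. The groups hold 2 libraries each, so single libraries were not screened for values far from their group.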

How the results depend on the processing

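The count of 3 members called between subsets was 7 among the best 30868 summits of each list (Tlr2, Tlr5, Ticam2, Nod1 and Malt1 higher, Traf6 and Ikbke lower in cDC2; 21.2% of members, 13% of all genes), 5 with the replicate block (13.9% and 13.2%), and 1 each, Ticam2, with the gene span plus 5 kb, a pseudocount of 0.5, no filter on low genes, and without both libraries of KO number 2. Leaving out 1 library gave 2 to 5, the 5 without replicate 1 of WT cDC2 (Tlr6, Ticam2, Map3k7, Tab2 and Tab3; 13.9% of members, 11.8% of all genes). With plain limma variance, and with trend and robust variance, the 3 called were Ticam2, Irak3 and Malt1 (8.33% of members, 9.02% and 8.17% of all genes). Casp1 and Card9 did not pass there. The 5 with the replicate block were Ticam2, Tirap, Tab2, Casp1 and Card9. With a mean of at least 3 summits the 3 were Ticam2, Tab2 and Malt1 (13% of members, 18% of all genes). Over all genes tested, calls between subsets were 661 higher and 796 lower, 392 higher and 494 lower with no filter, and 198 higher and 1248 lower with all deposited summits. Calls in KO minus WT over both subsets were 5 higher and 1 lower, and 172 higher and 156 lower with plain limma variance. Ticam2 passed in 18 of 19 alternatives, Casp1 in 9 of 17 and Card9 in 4 of 18, all with the main direction where tested. Among the best 30868 summits Casp1 fell below the filter and was not tested. It had 1 summit in each cDC2 library there and 1, 1, 0 and 1 in cDC1, without the main direction. Casp1 differed by -0.54 with a limit of 10 kb and by -0.51 with the gene span plus 5 kb, and Card9 by 0.15 among the best 30868 summits. In that alternative and with the block the fit used a common standard error for all genes. With all deposited summits the median difference between subsets of all genes was -0.10, that of the members 0.0021, and that of KO minus WT of all genes 0.10.

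In the 4 genotype contrasts 0 members passed in each of the 19 alternatives, leave-one-out fits (0 to 0) included. Sites of 1 genotype only at members were 0, except 1 among the best 30868 summits, and 0 to 1 with a library left out. Sites of 1 subset only were 22 (12 of cDC2 and 10 of cDC1), 24 to 29 with a library left out, and 7 of cDC2 and 12 of cDC1 with all deposited summits. Whether replicate numbers pair the libraries is not known, since the labels name no shared animal. Deviations of same-numbered libraries correlated at 0.0288 in KO and 0.0177 in WT between subsets, and at 0.0362 in cDC2 and 0.00206 in cDC1 between genotypes. The counts are small whole numbers, so these low values cannot exclude shared animals. Read depth is unknown and limits every count.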
